A study of Mus musculus with 25 samples.

Results

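The genes of the cytosolic ribosomal proteins were examined for binding locations of the erythroid transcription factors GATA1 and TAL1. Members were all protein-coding genes of the mm9 GENCODE annotation with a symbol of Rpl or Rps followed by a digit, except the Rps6k kinase genes. The rule gave 134 of 22208 protein-coding genes. Of these, 72 encode proteins of the cytosolic ribosome itself, with 30 genes of the small subunit (Rps) and 42 of the large subunit (Rpl). Another 9 are paralogs or genes with a similar name, such as Rpl3l, Rpl7l1 and Rps19bp1, the last of which encodes a partner of Rps19 and no ribosomal protein. The other 53 carry "-ps" in their symbol and are processed copies, intronless insertions of reverse-transcribed mRNA, which the annotation lists as protein coding. The rule reads only the symbol and uses no measured value, though it was set with earlier results of these data known.

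Binding was measured by ChIP-exo, in which an exonuclease trims immunoprecipitated DNA back to the cross-linked protein. The cells were mouse G1E, an erythroid progenitor line of strain 129 without Gata1, and G1E-ER4, the same line with GATA1 restored as a fusion to the ligand-binding part of the estrogen receptor, so that estradiol activates it. TAL1 was assayed in 4 G1E libraries and, in G1E-ER4 cells, in 5 libraries at 0 h of estradiol, 3 at 3 h and 3 at 24 h. GATA1 was assayed in 3 G1E-ER4 libraries at each of these times, and in 1 library of G1E cells. The labels link this last library to the GATA1 lists too, while the text of the study describes these lists as drawn from G1E-ER4 cells, and the lists do not show whether it was included. Each list pools several libraries of a factor, so no time point, replicate or tag count can be read from them, and the cells could not be checked against marker genes. G1E-ER4 is a derivative of the single G1E line and carries an inducible fusion in place of native GATA1. For each factor there are 3 lists of single-base positions: peak pairs (opposite-strand peaks of tag ends), MultiGPS locations (calls of a binding-event model), and final locations, found by both. The GATA1 lists hold 46666, 12781 and 10290 entries and the TAL1 lists 63546, 17639 and 15209. Since each factor has 1 pooled list of each kind, the counts below have no replicate error and no test, and genes are compared only with other genes in the same list.

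Ribosomal proteins are made in near-equal amounts and are assembled with ribosomal RNA in the nucleolus into the small subunit, which decodes mRNA, and the large subunit, which joins amino acids. Their genes are short, highly expressed in most cells and spread over the genome, and they have left many processed copies. In red cell precursors a shortage of 1 of these proteins causes Diamond-Blackfan anemia, a failure of erythroid maturation in which translation of GATA1 mRNA is reduced, and mutations in GATA1 itself can cause a similar disease.

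The locations closest to the start sites of ribosomal protein genes are shown first. They lie in promoters, and their windows hold no AGATAA or TGATAA. Each sequence spans 81 bp of mm9, with 40 bp on each side of a final location, and is written 5′ to 3′ on the plus strand. In these and later sequences, capitals mark AGATAA or TGATAA on either strand, the WGATAA motif of GATA factors. The locations at Rps27 and Rps19 are as close to a start site but overlap annotated untranslated sequence, so they are described later and not printed. At Rpl4 the nearest WGATAA lay 59 bp from the location, just outside the window, while the window itself holds the shorter letters GATA.
Rps10, GATA1 location at chr17:27773575-27773655: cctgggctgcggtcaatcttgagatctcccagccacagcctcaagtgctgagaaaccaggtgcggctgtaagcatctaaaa
Rpl4, GATA1 location at chr9:64021019-64021099: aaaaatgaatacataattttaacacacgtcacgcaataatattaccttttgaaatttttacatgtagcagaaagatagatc

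The next windows lie inside or just 3′ of ribosomal protein genes and carry the motif. They are shown because 7 of the 12 GATA1 final locations within 1 kb of a member had WGATAA within 40 bp, and 6 of these 7 are printed here. The seventh lies at Rpl7a, in an annotated untranslated region of Surf1, and is not printed.
Rps2, GATA1 location at chr17:24858639-24858719: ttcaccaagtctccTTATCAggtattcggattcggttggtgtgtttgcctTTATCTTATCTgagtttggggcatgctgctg
Rpl31, GATA1 location at chr1:39427437-39427517: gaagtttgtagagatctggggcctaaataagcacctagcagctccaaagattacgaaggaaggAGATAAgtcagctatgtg
Rpl37, GATA1 location at chr15:5068449-5068529: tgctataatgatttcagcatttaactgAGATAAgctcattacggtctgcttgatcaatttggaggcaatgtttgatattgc
Rps9, GATA1 location at chr7:3658574-3658654: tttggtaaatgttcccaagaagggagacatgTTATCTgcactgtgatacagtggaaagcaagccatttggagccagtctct
Rpl28, GATA1 location at chr7:4746397-4746477: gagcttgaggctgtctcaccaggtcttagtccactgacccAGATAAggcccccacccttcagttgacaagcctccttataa
Rpl13a, GATA1 location at chr7:52390953-52391033: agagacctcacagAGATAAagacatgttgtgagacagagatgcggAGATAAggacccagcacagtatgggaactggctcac

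In the annotation a member was mostly short. The median annotated length was 3226 bp for the 72 cytosolic ribosome genes and 483 bp for the processed copies, against 15683 bp for all other protein-coding genes. A short gene has fewer locations near it, so each member was compared with all other protein-coding genes whose length was 80 to 125% of its own, and the mean share over members is called the length-matched share. A gene had an entry within 1 kb if one lay in its body or at most 1 kb outside.

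GATA1 peak pairs were found near many of the cytosolic ribosome genes. Of the 72 genes, 29 (40.3%) had a GATA1 peak pair within 1 kb, against a length-matched share of 14.7%. Within 10 kb it was 51 genes (70.8%) against 33.8%. Measured from the closest start site in place of the gene, 15 of the 72 genes had a GATA1 pair within 1 kb, against a length-matched share of 8.04%. Counted over all 134 members, with the copies, the numbers were 32 (23.9%, length-matched 11.2%) and 68 (50.7%, length-matched 28.4%). For comparison, 35.1% of all protein-coding genes, most of them longer, had a GATA1 peak pair within 1 kb and 48.4% within 10 kb.

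In the stricter GATA1 lists fewer genes had an entry, and the shares again lay above those of genes of matched length. A MultiGPS location lay within 1 kb of 14 cytosolic ribosome genes (19.4%, length-matched 7.52%) and within 10 kb of 32 (44.4%, length-matched 18.6%). Over all members this was 14 (10.4%, length-matched 5.69%) and 38 (28.4%, length-matched 16.4%), beside 18.9% and 27.5% of all protein-coding genes. A final location lay within 1 kb of 11 cytosolic ribosome genes (15.3%, length-matched 6.23%) and within 10 kb of 24 (33.3%, length-matched 16.1%). All 11 members with a final GATA1 location within 1 kb were cytosolic ribosome genes. They were 8.21% of the members (length-matched 4.71%), and 30 members (22.4%, length-matched 13.9%) had such a location within 10 kb. Of all protein-coding genes it was 16.3% and 23.9%.

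TAL1 peak pairs, although the TAL1 list is longer, were found near fewer of these genes. A TAL1 peak pair lay within 1 kb of 9 cytosolic ribosome genes (12.5%), about the length-matched share of 13.3%, and within 10 kb of 30 (41.7%, length-matched 34.3%). Within 1 kb of the start site it was 3 of the 72 genes, where 1 gene is 1.39%, against a length-matched share of 6.15%. Over all members a TAL1 pair was near 11 (8.21%, length-matched 9.91%) and 44 (32.8%, length-matched 29.4%), beside 35.4% and 50.1% of all protein-coding genes. TAL1 MultiGPS locations lay within 1 kb of 6 cytosolic ribosome genes (8.33%, length-matched 5.97%) and within 10 kb of 23 (31.9%, length-matched 16.1%). The members with one numbered 7 (5.22%, length-matched 4.16%) and 29 (21.6%, length-matched 13%), beside 16.6% and 24.8% of all protein-coding genes. Final TAL1 locations lay within 1 kb of 6 cytosolic ribosome genes (8.33%, length-matched 5.21%) and within 10 kb of 16 (22.2%, length-matched 13.9%). The members with one numbered 7 (5.22%, length-matched 3.62%) and 22 (16.4%, length-matched 11.1%), beside 14.2% and 21.3% of all protein-coding genes.

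The promoters of these genes also differ in base composition. From 250 bp before to 50 bp after the start, the median ratio of observed to expected CpG was 0.844 in the cytosolic ribosome genes, 0.397 in the processed copies and 0.535 in all other genes, while the median GC content was 55.2% in the first and 55.3% in the last of these. When comparable genes were also held to a promoter GC content within 5 percentage points and a CpG ratio within 0.1, a choice made after the data were seen, 64 of the 72 genes had at least 10 comparable genes. The comparable share for GATA1 peak pairs became 24.2% within 1 kb and 47.2% within 10 kb, below the 40.6% and 73.4% of these 64 genes. For final GATA1 locations it became 10.2% and 23.9%, beside 14.1% and 34.4% of the 64. For TAL1 peak pairs it became 18.8% and 45.7%, above the 12.5% and 43.8% of the 64, and for final TAL1 locations 7.12% and 20.8%, beside 7.81% and 21.9%. For GATA1 MultiGPS locations it became 12.6% and 28.3%, beside 18.8% and 45.3%. For TAL1 MultiGPS locations it became 7.97% and 23.8%, beside 7.81% and 32.8%. How much of the difference in counts goes with promoter composition beyond this matching was not tested.

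**Figure D1:**
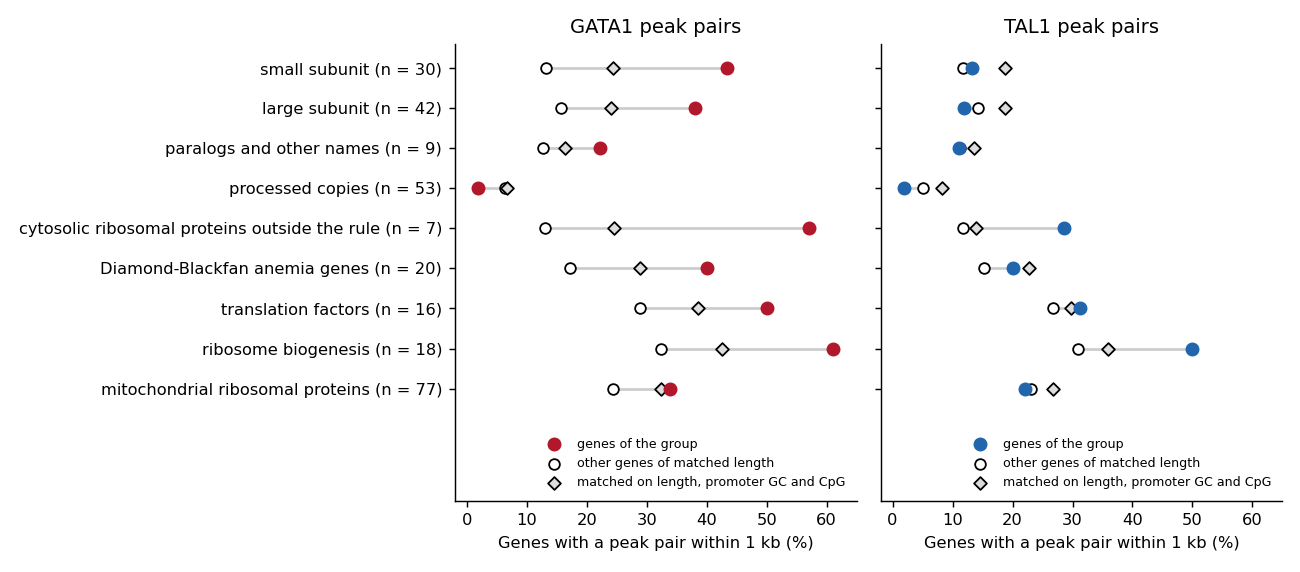
Percentage of genes with a peak pair within 1 kb, on the x axis, for GATA1 (left) and TAL1 (right) in each gene group, on the y axis with its number of genes. Filled points are the group, open circles other genes of matched length, and diamonds other genes matched also on promoter GC and CpG, for the genes of the group with at least 10 such genes. For GATA1 the small and large subunit genes lie at 43.3% and 38.1%, to the right of both kinds of comparable genes, while for TAL1 they lie at 13.3% and 11.9%, to the left of the diamonds.

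For GATA1 pairs the share of cytosolic ribosome genes lay above that of genes of matched length at each distance examined. With no distance allowed, only pairs in the gene body, 25% of the cytosolic ribosome genes had a GATA1 pair against 9.85% of genes of matched length. At 5 kb the shares were 59.7% and 25.2%, and at 100 kb 98.6% and 78.2%. For TAL1 pairs they were 9.72% and 9.13% in the gene body, 31.9% and 24.2% at 5 kb, and 94.4% and 85% at 100 kb. Cytosolic ribosome genes lay among more neighbors, with a median of 6 protein-coding start sites within 100 kb, against 4 for all other genes. With this number held within 1.5-fold as well, the comparable shares within 1 kb were 14.1% for GATA1 pairs and 13.2% for TAL1 pairs.

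**Figure D2:**
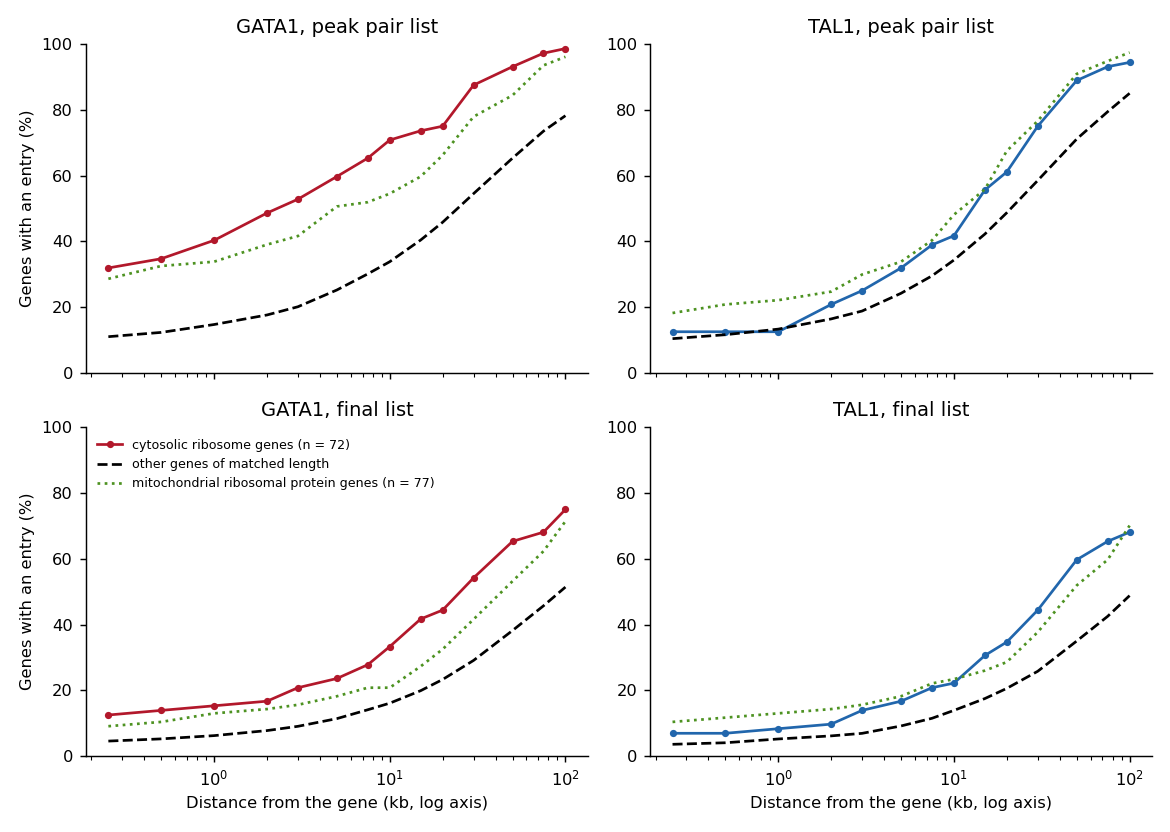
Percentage of genes with an entry, on the y axis, against the distance allowed from the gene, on a log x axis in kb, for the peak pair lists (top) and final lists (bottom) of GATA1 (left) and TAL1 (right). Solid lines with points are the 72 cytosolic ribosome genes, dashed lines other genes of matched length, and dotted lines the 77 mitochondrial ribosomal protein genes. The solid GATA1 line for peak pairs lies above both other lines at every distance drawn, while the TAL1 line meets the dashed line at 1 kb (12.5% and 13.3%).

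Most of the cytosolic ribosome genes with a GATA1 peak pair within 1 kb had no TAL1 pair there. There were 23 such genes (31.9%), against 8.08% of genes of matched length. Pairs of both factors lay near 6 genes (8.33%), against 6.57%, and TAL1 pairs without GATA1 pairs near 3 genes (4.17%), against 6.69%. The other 40 genes had neither. Over all protein-coding genes the order was different, with both factors at 23.6%, GATA1 alone at 11.4% and TAL1 alone at 11.8%. By final locations within 1 kb, 5 cytosolic ribosome genes had both factors (6.94%, length-matched 3.07%), 6 only GATA1 (8.33%, length-matched 3.17%) and 1 only TAL1 (1.39%, length-matched 2.14%). Over all protein-coding genes these shares were 10.6%, 5.71% and 3.59%. Within 10 kb the peak pairs of both factors were near about as many of these genes as those of GATA1 alone, 26 (36.1%, length-matched 20.5%) and 25 (34.7%, length-matched 13.3%), and by MultiGPS locations 18 had both (25%, length-matched 11.7%) and 14 only GATA1 (19.4%, length-matched 6.89%). The GATA1 and TAL1 lists come from different sets of libraries and differ in length, so a gene listed for 1 factor alone is not shown to lack the other.

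**Figure D3:**
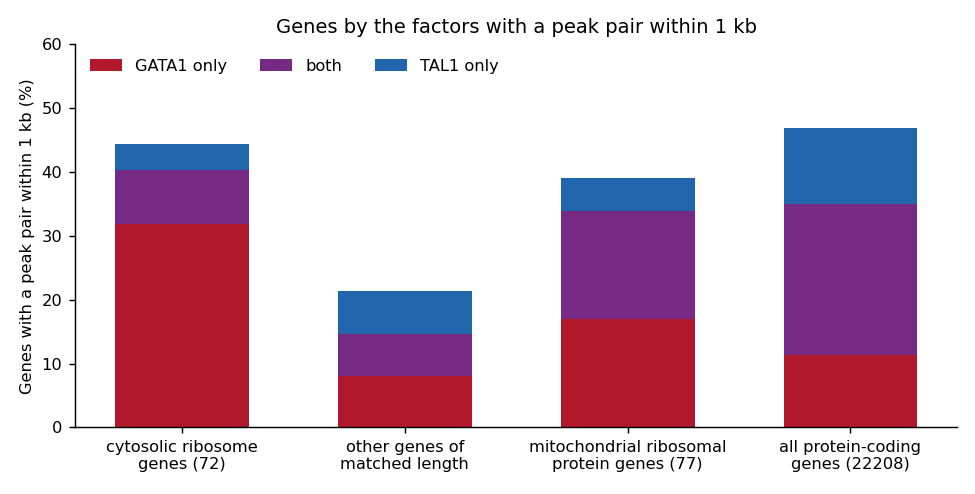
Percentage of genes with a peak pair within 1 kb, on the y axis, split into genes with GATA1 pairs only, both factors and TAL1 pairs only, for each gene group on the x axis. The segment for GATA1 alone is 31.9% of the cytosolic ribosome genes, 8.08% of other genes of matched length, 16.9% of the mitochondrial ribosomal protein genes and 11.4% of all protein-coding genes.

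Among the small subunit genes, 13 of 30 (43.3%, length-matched 13.2%) had a GATA1 peak pair within 1 kb and 4 (13.3%, length-matched 11.8%) a TAL1 pair. Final GATA1 locations lay within 1 kb of 5 of them, Rps27, Rps10, Rps19, Rps2 and Rps9. Rps9, a protein near the decoding site, had the most GATA1 pairs within 1 kb of any member, 9, and all 9 lay between 2598 and 2981 bp downstream of its closest start site, just past the 3′ end of the gene. Its final GATA1 locations lay at +2687 and +2969 bp, 111 and 393 bp beyond the gene, and a TAL1 location lay between them at +2765 bp. The TAL1 location was 78 bp from the closer GATA1 location, which is too far for the definition of cooccupancy used here, midpoints under 40 bp apart.

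Rps10, a protein of the head of the small subunit, had the only cooccupied location within 1 kb of a member. The GATA1 location lay 41 bp and the TAL1 location 67 bp upstream of the start site, 26 bp apart, with 2 GATA1 pairs and 1 TAL1 pair, and the first window printed above holds both positions. No WGATAA lay within 100 bp of either. Of all protein-coding genes 7.37% had a cooccupied location within 1 kb and 11.1% within 10 kb, while among the members it was 1 (0.746%, length-matched 1.6%) and 6 (4.48%, length-matched 5.07%).

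Rps19, which matures the small subunit and is the gene most often mutated in Diamond-Blackfan anemia, had 1 final GATA1 location at +128 bp, in an exon of the gene. A single GATA1 pair at +81 bp accompanied it, no WGATAA was within 100 bp, and the closest final TAL1 location was 24938 bp away. Rps27 had a GATA1 location 30 bp upstream of its start, but the start site of the neighboring gene Rab13, a vesicle-traffic GTPase, was closer, at 14 bp. Rps2 had a GATA1 location at +1483 bp, in an intron, where the printed window holds 3 overlapping or neighboring WGATAA matches. A further GATA1 location 2087 bp beyond Rps2 lay 396 bp from the start site of Ndufb10, a subunit of respiratory complex I. Other small subunit genes had final locations only farther out. TAL1 locations lay 1248 bp upstream of Rps26 and 2350 bp upstream of Rps15a, and 3 lay 2738 to 2877 bp from Rps3, closer to the start site of Klhl35. GATA1 locations lay 1824 bp from Rps23, 2092 bp from Rps25 and 8641 bp from Rps7, the last closer to the start site of Colec11. TAL1 pairs at Rps7, 2 within 1 kb and both in its introns, had no final location.

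Among the large subunit genes, 16 of 42 (38.1%, length-matched 15.7%) had a GATA1 peak pair within 1 kb and 5 (11.9%, length-matched 14.3%) a TAL1 pair. Final GATA1 locations lay within 1 kb of 6, Rpl4, Rpl13a, Rpl28, Rpl37, Rpl31 and Rpl7a. Rpl31, a protein at the exit of the peptide tunnel, had 7 GATA1 pairs, all in its introns between +1499 and +2846 bp, with a final location at +2781 bp and the closest final TAL1 location 21551 bp from the gene. Rpl37 had a final GATA1 location at +1876 bp in an intron, 5 bp from Snord72, a small nucleolar RNA gene, and 2 more 8208 and 9223 bp beyond its end, closer to Gm10250. Rpl28 had final locations of GATA1 at +1242 bp and TAL1 at +1188 bp, 54 bp apart and 273 and 219 bp past the end of the gene, and 5 GATA1 pairs within 1 kb. Rpl4, which lines the peptide tunnel, had its GATA1 location 135 bp upstream of the start and a TAL1 location at +2730 bp in an exon, 2865 bp apart. The GATA1 location at Rpl7a lay 642 bp beyond the gene, in an exon of Surf1.

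Rpl13a and Rpl11 have long annotated extents that reach their neighbors, of 10860 and 25164 bp. Rpl13a had 5 GATA1 and 3 TAL1 pairs within 1 kb. Its GATA1 location at +608 bp is in an intron of both Rpl13a and Flt3l, the gene of the cytokine FLT3 ligand, and the start site of Flt3l was closer, at 433 bp. Upstream, 7 final TAL1 locations lay between 946 and 1375 bp from the gene, with a GATA1 location 2 bp from 1 of them, and the closest start site of each was again that of Flt3l. Rpl11, which with Rpl5 binds the p53 inhibitor Mdm2 when ribosome assembly fails, had 1 TAL1 location in an intron at +21936 bp, 9391 bp from the start site of Tceb3, a GATA1 location 2204 bp from that start site, and 4 TAL1 pairs within 1 kb, as many as Rpl10a-ps2, the most for any member. Rpl5 had no peak pair within 1 kb, 1 GATA1 pair and no TAL1 pair within 10 kb, and its closest final locations were 26250 bp (GATA1) and 26246 bp (TAL1) away.

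The largest groups of final locations within 10 kb were at 3 large subunit genes, and those at Rpl6 and Rpl13a were closer to another gene. Rpl6 had 10 TAL1 and 2 GATA1 locations 6783 to 7248 bp beyond its end, the TAL1 locations within 465 bp of each other, and the closest start site was that of Gm15800. Rpl13a had 7 TAL1 and 2 GATA1 locations, as above. Rpl14 had 4 of each factor, of which 3 GATA1 and 4 TAL1 locations lay 2223 to 8321 bp upstream with its own start site the closest. Rpl32 had 2 GATA1 locations and 1 TAL1 location 5542 to 5703 bp upstream, and Rpl26 had 2 GATA1 locations 2574 and 2662 bp upstream, with the closest TAL1 location 45334 bp away. At Rpl23a a GATA1 and a TAL1 location 1 bp apart lay 4611 bp beyond the gene, and the start site of Nek8, a kinase of the cilium, was 313 bp from the GATA1 location. Rpl3 had 1 TAL1 location 4406 bp upstream, closer to Syngr1, Rpl13 had 2 TAL1 locations 8794 and 9238 bp beyond it, closer to Cpne7, and Rpl8 had 1 GATA1 location 554 bp from the start of Commd5.

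**Figure D4:**
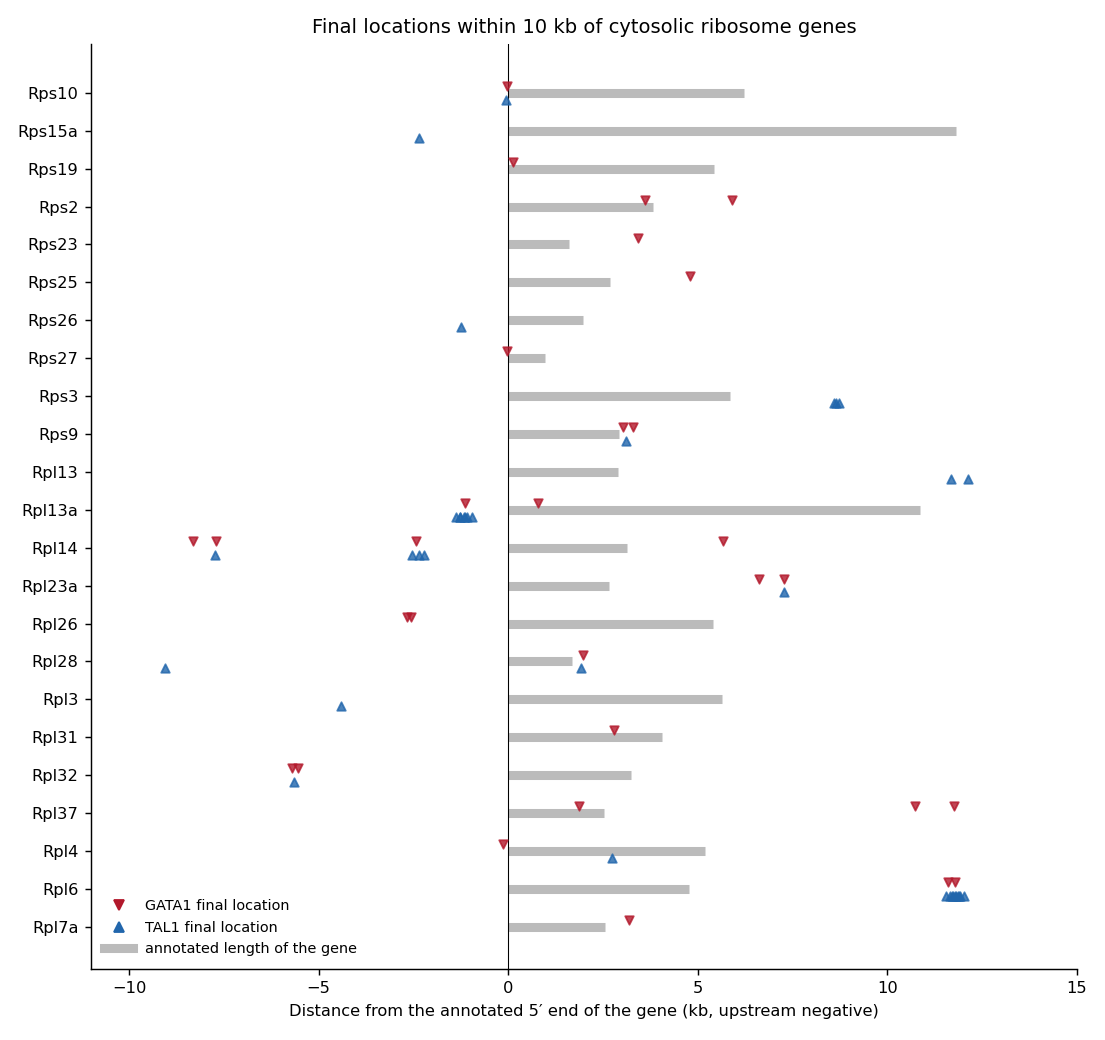
Final GATA1 locations (red, pointing down) and TAL1 locations (blue, pointing up) within 10 kb of the cytosolic ribosome genes among the 30 members with the most final locations, by their distance in kb from the annotated 5′ end of the gene on the x axis, with 1 gene per line and the gene drawn as a gray bar. Rpl11, whose annotated length of 25164 bp exceeds the axis, is left out. TAL1 locations crowd upstream of Rpl13a and Rpl14 and downstream of Rpl6, while GATA1 locations lie at or inside Rps10, Rps19, Rps2, Rps27, Rpl13a, Rpl31, Rpl37 and Rpl4.

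Over all members, 41 distinct GATA1 locations lay within 10 kb, 4 in exons, 13 in introns and 24 outside protein-coding genes, and 20 had their closest start site at a member. Of 52 TAL1 locations, 3 lay in exons, 8 in introns and 41 outside, and 19 had a member as the closest. Within 1 kb it was 9 of 12 GATA1 and 5 of 7 TAL1 locations. Entries with the closest start site at the gene itself were also counted alone. A GATA1 pair of this kind lay within 1 kb of 26 of the 72 cytosolic ribosome genes, against a length-matched share of 12.6%. A TAL1 pair of this kind lay within 1 kb of 7 of the 72, against 11.5%.

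At start sites, too, more of the 72 genes had GATA1 than TAL1 pairs. GATA1 pairs lay in the 250 bp upstream of the closest start site of 6 cytosolic ribosome genes, among them Rpl18, Rpl28, Rpl4, Rps10 and Rps27, which is 8.33%, against 2.56% of all other protein-coding genes. In the 250 bp downstream it was 4 genes (5.56%), against 1.48%. The upstream pair at Rpl18 lay inside the gene, before an internal start site, and was closer to the start site of Sphk2. The pairs at -27 bp of Rps27 and -149 bp of Rpl4 were closer to the start sites of Rab13 and Zwilch. TAL1 pairs lay in the 250 bp upstream of none of the 72 genes, against 1.59% of the others, and in the 250 bp downstream of 1 gene (1.39%), against 1.44%. In all, 58 GATA1 pairs lay within 1 kb of the 72 genes, 17 of them within 500 bp of a start site at 12 genes, and 48 had the member's start site as their closest. For TAL1 it was 16 pairs, 2 within 500 bp, and 9 with the member's start site closest. As a share of the lists this was 0.124% of GATA1 pairs and 0.0252% of TAL1 pairs. A MultiGPS location of the same factor lay within 100 bp of 25 of the 58 GATA1 pairs and of 8 of the 16 TAL1 pairs. Most genes had few pairs, since 18 had exactly 1 GATA1 pair within 1 kb, 7 had 2 and only Rps9, Rpl31, Rpl28 and Rpl13a had 5 or more.

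**Figure D5:**
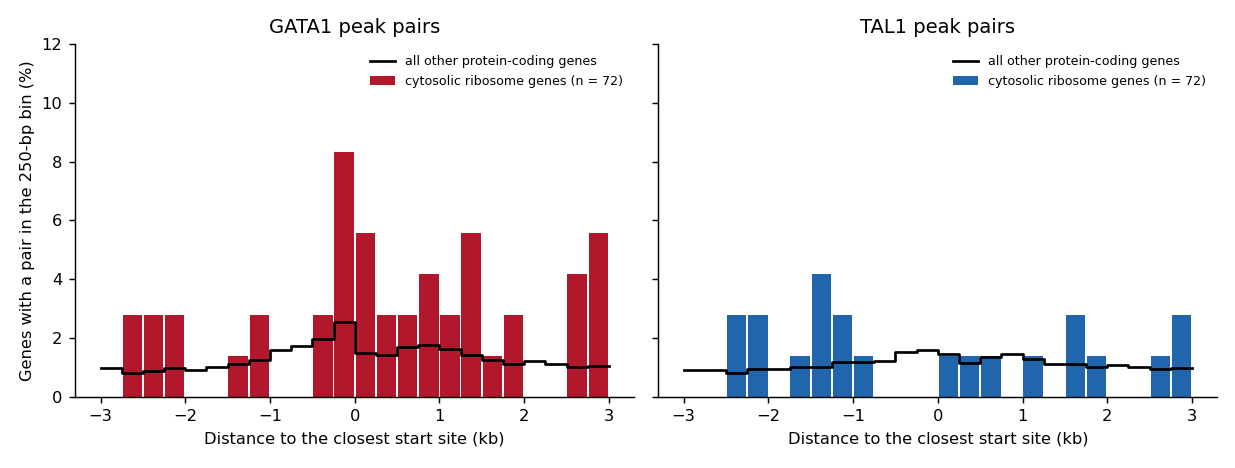
Percentage of genes with a peak pair in each 250-bp bin, on the y axis, by distance to the closest start site in kb, on the x axis, for GATA1 (left) and TAL1 (right). Bars are the 72 cytosolic ribosome genes, where 1 gene is 1.39%, and the line is all other protein-coding genes. The GATA1 bar just upstream of the start site reaches 8.33% where the line is at 2.56%, and the TAL1 bar there is empty.

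The WGATAA motif was counted as exact letters at the entries near members and in the whole lists. The study, by a scored motif scan, reported it at a larger share of the final GATA1 locations than the exact letters give. The exact letters lay within 40 bp of 26 of the 41 GATA1 locations within 10 kb (63.4%), against 66.5% of all 10290, and 7.32% of windows moved by 1 kb. Within 1 kb of a member it was 7 of 12 (58.3%), against 59% of the GATA1 locations within 1 kb of any start site. The shorter letters GATA lay within 40 bp of 10 of these 12 (83.3%), against 89.5% of those near any start site. For TAL1, WGATAA was at 22 of 52 locations within 10 kb (42.3%) and 2 of 7 within 1 kb (28.6%). In the whole TAL1 list it was at 45.9% of 15209. Within 20 bp of the location it was 7 of 52 (13.5%), against 22.1%. The windows of clustered TAL1 locations overlap and can share a match. Of the 52, 10 lay within 465 bp of each other at Rpl6 and 7 within 429 bp at Rpl13a. With so few locations within 1 kb, 1 of them moves the shares within 1 kb by many percentage points. At the 58 GATA1 pairs within 1 kb of cytosolic ribosome genes the share was 46.6%, against 48.2% of all pairs and 43.2% of those within 1 kb of any start site. TG at 7 or 8 bp before WGATAA is the spacing of the composite element bound by TAL1 with GATA1. It was at 1 of these 58 pairs (1.72%), against 11.6% of pairs near any start site and 14.4% of all pairs. Entries near any start site were taken by distance to that site, while those near members were taken by distance to the gene. Of the 58 pairs, 13 lay within 1 kb downstream and 10 within 1 kb upstream of a start site of the member. Pairs close together can share a match, and with pairs within 40 bp merged the 58 become 46. The TG was at 0 of the 12 final GATA1 locations within 1 kb and 7 of the 41 within 10 kb (17.1%). Its share was 18% of those within 1 kb of any start site and 21.9% of the list. For TAL1 it was at 2 of the 7 within 1 kb (28.6%) and 11 of the 52 within 10 kb (21.2%), against 25% of the list. The E-box letters CAGATG or CAGCTG on either strand were within 40 bp of 7 of the 58 pairs (12.1%), against 14.6% of all. Windows of 81 bp at the start sites themselves held WGATAA at 2 of 158 start sites of cytosolic ribosome genes (1.27%) and at 3.36% of 45939 start sites of all protein-coding genes. Of the GATA1 pairs within 500 bp of a start site, all those at Rpl13, Rpl18, Rpl28, Rps10 and Rps27a lacked even the letters GATA within 40 bp. So did the pair at -149 bp of Rpl4 and the pair at +286 bp of Rpl13a, while the other such pair at each had them. Over the 58 pairs GATA was within 40 bp of 74.1%, against 75.2% of pairs within 1 kb of any start site.

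Of the 9 paralogs and other names, none had a final location within 1 kb and 2 had a GATA1 pair, 22.2% against 12.7% of genes of matched length. Rpl3l, a paralog of striated muscle, lies near Rps2, and both of its final GATA1 locations within 10 kb are those named above at Rps2 and Ndufb10. Rps19bp1 had a GATA1 and a TAL1 location 75 bp apart, 9822 and 9747 bp away in an exon of Smcr7l, with the start site of the transcription factor gene Atf4 the closest at 4392 bp. Of the 53 processed copies, 1 (1.89%, length-matched 6.32%) had a GATA1 pair within 1 kb and 1 (1.89%, length-matched 5.13%) a TAL1 pair. The GATA1 pair was at Rpl21-ps11. Rpl10a-ps2 had 4 TAL1 pairs upstream and a final TAL1 location 256 bp before its start, and no other copy had a final location within 1 kb. Its window is shown because it holds WGATAA, with TG at the spacing given above, at a copy rather than at the parent gene Rpl10a. The single final location near Rpl10a, of GATA1, lay 9940 bp away. A GATA1 MultiGPS location that is not in the final list lay inside Rpl10a, 216 bp from a start site.
Rpl10a-ps2, TAL1 location at chr13:8940439-8940519: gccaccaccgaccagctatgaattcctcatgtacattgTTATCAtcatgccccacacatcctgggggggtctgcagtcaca

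Farther from the copies, Rpl9-ps6 had 5 TAL1 locations and 1 GATA1 location 9588 to 9894 bp upstream, most of them closer to Minpp1, and Rpl30-ps6 had 3 TAL1 and 1 GATA1 location 5326 to 5459 bp away, where its own start site was the closest. Rps26-ps1 had 2 TAL1 locations, 1818 and 9139 bp away, in introns of Wwp2. In all, 4 copies had a final GATA1 location within 10 kb (7.55%, length-matched 11%) and 5 a TAL1 location (9.43%, length-matched 7.3%).

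Reads that map to several places were left out by the authors, which bears on genes with many copies. Words of 32 bases that occur once in mm9 made up 77.5% of the exon sequence of the cytosolic ribosome genes, 94.2% of their introns and 93.2% of the 1 kb on either side. In the processed copies it was 31% of the exons and 84.5% of the flanks, and in mitochondrial ribosomal protein genes 91.9% of the exons. Of the 58 GATA1 pairs, 8 (13.8%) lay in the exons of the gene itself, which are 28.3% of the bases counted, 22 (37.9%) in its introns, which are 41.1%, and 28 (48.3%) in the flanks, which are 30.6%. The 16 TAL1 pairs were split into 4, 7 and 5. What part of the low counts in exons and copies goes with unmappable sequence was not tested.

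Other genes of translation were counted in the same way, from lists chosen by function. Among the 77 mitochondrial ribosomal protein genes, which are longer, 26 (33.8%, length-matched 24.4%) had a GATA1 pair and 17 (22.1%, length-matched 23.1%) a TAL1 pair within 1 kb, and with promoter composition matched as well the shares were 32.4% and 26.8%. Of 7 cytosolic ribosomal proteins whose symbols the rule leaves out (such as Rpsa, Rplp0, Fau and Gnb2l1), 4 had a GATA1 pair within 1 kb (57.1%, length-matched 13.1%) and 2 a TAL1 pair (28.6%, length-matched 11.8%). Of 16 translation factors, such as Eef1a1 and Eif4b, 8 had a GATA1 pair (50%, length-matched 28.8%) and 5 a TAL1 pair (31.2%, length-matched 26.8%). Of 18 genes of ribosome biogenesis, such as Npm1 and Ncl, 11 had a GATA1 pair (61.1%, length-matched 32.3%) and 9 a TAL1 pair (50%, length-matched 30.9%). With promoter composition matched as well, the comparable shares for GATA1 pairs were 24.5% for the proteins outside the rule, 38.6% for translation factors and 42.6% for ribosome biogenesis. The genes with enough comparable genes had 50%, 50% and 58.8%. For TAL1 pairs the comparable shares were 13.9%, 29.8% and 36%, beside 33.3%, 31.2% and 52.9%.

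Of 20 genes of Diamond-Blackfan anemia, all members except Tsr2, a chaperone of Rps26, 8 had a GATA1 pair within 1 kb (40%, length-matched 17.2%) and 4 a TAL1 pair (20%, length-matched 15.3%). With promoter composition matched as well, the comparable shares were 28.9% and 22.7%, beside 37.5% and 25% of the 16 genes with enough comparable genes. Final GATA1 locations lay within 1 kb of Rps27, Rps10, Rps19 and Rpl31 and within 10 kb also of Rpl11, Rpl26 and Rps7. Final TAL1 locations lay within 1 kb of Rps10 and Rpl11 and within 10 kb also of Rps26 and Rps15a. The 40% is about the share of all cytosolic ribosome genes, 40.3%.

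At the other end, 17 of the 72 cytosolic ribosome genes had no peak pair of either factor within 10 kb (23.6%), against 52.3% of genes of matched length and 37% of all protein-coding genes. They included Rps13, Rps18, Rps28 and Rps29 of the small subunit and Rpl9, Rpl15, Rpl17, Rpl19, Rpl21, Rpl22, Rpl23, Rpl29, Rpl30, Rpl36 and Rpl36a of the large subunit. Of these, Rpl15, Rps28 and Rps29 are in the list of Diamond-Blackfan anemia genes.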

How the data were processed

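GATA1 and TAL1 were measured by ChIP-exo in G1E and G1E-ER4 cells. The authors' processing notes name CASAVA 1.7, bcl2fastq 2.15, Bowtie 1.00, BWA 0.6.2 and BWA 0.7.9a. The authors removed multiply mapped reads, merged replicates, paired the peaks called on each strand, excluded blacklisted regions and kept calls enriched over input. The deposited lists hold 1 position per entry in mm9, with no score, and all fell within the chromosome lengths of the genome used. The depth behind an entry is unknown from the lists.

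The members and gene lists were chosen with earlier results of these data known. The longest entry of each gene name on 20 chromosomes was used. No group of samples could be compared, so no test was made, and comparable shares were means over members with at least 10 comparable genes. Start sites were those of protein-coding transcripts. Named genes were members with a final location within 1 kb, the 30 members with the most final locations within 10 kb and others by distance, the 3 members per factor with the most peak pairs, Rps19, Rpl5 and Rpl11, and genes whose start site was closest to a location. Some further genes, such as those with pairs near start sites, those without any pair, Rps7, Rpl8 and Rpl10a, were named after their values were seen. Sequences were read from the mm9 genome. Alternatives were other limits, gene extents, members, matching windows, motif windows and word lengths. The counting, matching, motif search and word counting were tested on simulated data. Expression, tag counts and time courses were not analysed here, and some single genes are not reported here. The tools were numba 0.67.0, matplotlib 3.10.9, scipy 1.17.1, numpy 2.4.6, pandas 2.3.3 and Python 3.11.15.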

Additional observations from a re-analysis of the deposited data

How the results depend on the processing

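Of the alternative values computed for the counts and shares, 124 stayed within the spread allowed (1.5-fold for counts) and 25 did not. Measured from the start site in place of the gene, the members with an entry within 1 kb fell to 5, 7 and 16 for GATA1 final, MultiGPS and peak pair lists and to 3, 3 and 4 for TAL1, and the length-matched shares of the cytosolic ribosome genes fell as well, to 8.04% for GATA1 pairs and 6.15% for TAL1 pairs. Within 5 kb in place of 10 kb, 19 members had a final GATA1 location, 14 a final TAL1 and 18 a TAL1 MultiGPS location, and within 2 kb in place of 1 kb 22 had a TAL1 pair. With only entries closest to the member's own start site, the 10-kb counts were 15 (GATA1 final), 21 (GATA1 MultiGPS), 13 (TAL1 final), 17 (TAL1 MultiGPS) and 29 (TAL1 pairs). With promoter GC and CpG also matched, an alternative chosen after seeing the data, the comparable shares for the 117 members with enough comparable genes were 37% (GATA1 pairs) and 38.4% (TAL1 pairs) within 10 kb, beside 52.1% and 33.3% of those 117. Cooccupied members numbered 0 under 20 bp and 3 under 100 bp within 1 kb, and 12 under 100 bp within 10 kb. WGATAA was at 7 TAL1 locations within 20 bp and 35 within 100 bp, and GATA at 36 within 40 bp. With words of 24 bases 90.6% of intron and 89.8% of flank sequence occurred once. No paired analysis was possible because each list pools libraries of a factor and carry no replicate number, and for the same reason no replicate could be left out.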

Other observations

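Many cytosolic ribosome genes carry small nucleolar RNA genes, which guide the modification of ribosomal RNA, inside their introns. Of the 72 genes, 28 contained an annotated one and 44 did not. A GATA1 peak pair lay within 1 kb of 12 of the 28 (42.9%, length-matched 14.2%) and of 17 of the 44 (38.6%, length-matched 14.9%), and a TAL1 pair of 3 (10.7%, length-matched 12.9%) and 6 (13.6%, length-matched 13.5%). Of the 58 GATA1 pairs, 2 were within 100 bp of a small nucleolar RNA gene and 0 inside one, and of the 16 TAL1 pairs 1 was within 100 bp. The final GATA1 location of Rpl37, 5 bp from Snord72, is the closest of these among final locations within 1 kb of a member.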
